A study of Homo sapiens with 6 samples.

Results

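The genes of this account are the 44 that the deposited expression table of the renal cancer line 786-O assigns to the KEGG pathway aminoacyl-tRNA biosynthesis, out of 20030 genes in the table. They were taken by that annotation, with no filter on level, though members and sets were chosen with earlier results of these data known. By the symbol and known site of action they comprised 21 cytosolic synthetase genes, 17 mitochondrial synthetase genes and 6 accessory genes, which make or modify charged tRNA in other ways. The question was how the cytosolic and mitochondrial sets differed between 786-O cells with stable YB1 knockdown and their vector control. 786-O is an established line from a clear cell renal cell carcinoma. The 3 vector libraries came from cells carrying a scrambled shRNA, and the 3 shYB1 libraries from cells carrying an shRNA against YB1. All cells were at passages 16 to 18 and were harvested after puromycin selection. The series' design text speaks of several independent shRNAs against YB1, while the labels name 1 shYB1 group, so an effect of the knockdown and of a single hairpin cannot be told apart. The sources do not say that the 3 libraries of a group came from separate cultures, so p-values measure the spread between these samples, which may be technical.

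Aminoacyl-tRNA synthetases join each amino acid to its own tRNA, and the charged tRNA then carries that amino acid to the ribosome. Human cells keep separate sets for the cytosol and for the mitochondrion, both encoded in the nucleus. GARS and KARS serve both compartments from 1 gene each, and several cytosolic enzymes are held together with scaffold proteins in a large multisynthetase complex. Many cytosolic synthetase genes are known targets of ATF4, the transcription factor of the amino acid response, which binds elements that contain the letters TGATGNAA.

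Transcript levels are given as FPKM, fragments scaled by transcript length and by the mapped fragments of the library, as deposited. The summed FPKM ranged from 282736 to 295887 per library. The depth of the libraries is unknown, because the table holds no counts. YBX1, the gene of YB1, was at 366, 373 and 378 FPKM in vector and at 167, 166 and 173 in shYB1, and it fell by 1.14 on the log2 scale (limma, adjusted p = 1.53e-08). All 9 renal carcinoma markers were above the filter, including PAX8 and KRT8, while the 8 markers of leukocytes, endothelium, stroma and distal nephron reached at most 0.406 FPKM and 4 of them were at 0 in every library. Since the RNA was taken in bulk, a change in the share of cells that express a gene and a change per cell cannot be told apart. Tests covered the 10439 genes whose mean reached 1 FPKM, on log2(FPKM + 0.1), a scale that understates the change of low genes, and a gene was called at an adjusted p under 0.05.

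Most cytosolic synthetase transcripts were higher in shYB1. Of the 21 cytosolic genes, 13 were called higher, or 61.9%, and 0 lower, beside a background of 18.7% higher and 6.93% lower among all genes tested. By contrast, 3 of the 16 mitochondrial genes tested were called higher, or 18.8%, and 0 of the 5 accessory genes tested. By limma without adjustment, a p under 0.05 was reached by 16 cytosolic genes higher and 0 lower, by 5 mitochondrial genes higher and 1 lower, and by 0 accessory genes, beside 28.2% higher and 10.8% lower among all genes. FARS2 and PSTK were under the filter. The median log2 fold change was 0.16 for the cytosolic set, 0.09 for the mitochondrial set and 0.06 for all genes. With libraries rescaled by median-of-ratios size factors, which centre the bulk of genes near 0, 11 cytosolic and 0 mitochondrial genes were called higher beside 11.4% higher and 12% lower among all genes, and the medians were 0.10, 0.04 and 0.00. At an unadjusted limma p under 0.05, 3 mitochondrial genes were then higher and 3 lower, beside 18.1% and 18.4% of all genes. The same rescaling moved the calls over all genes from 1956 higher and 723 lower to 1192 higher and 1253 lower. The difference between the sets was not tested, because the genes of a set are not replicates.

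**Figure D1:**
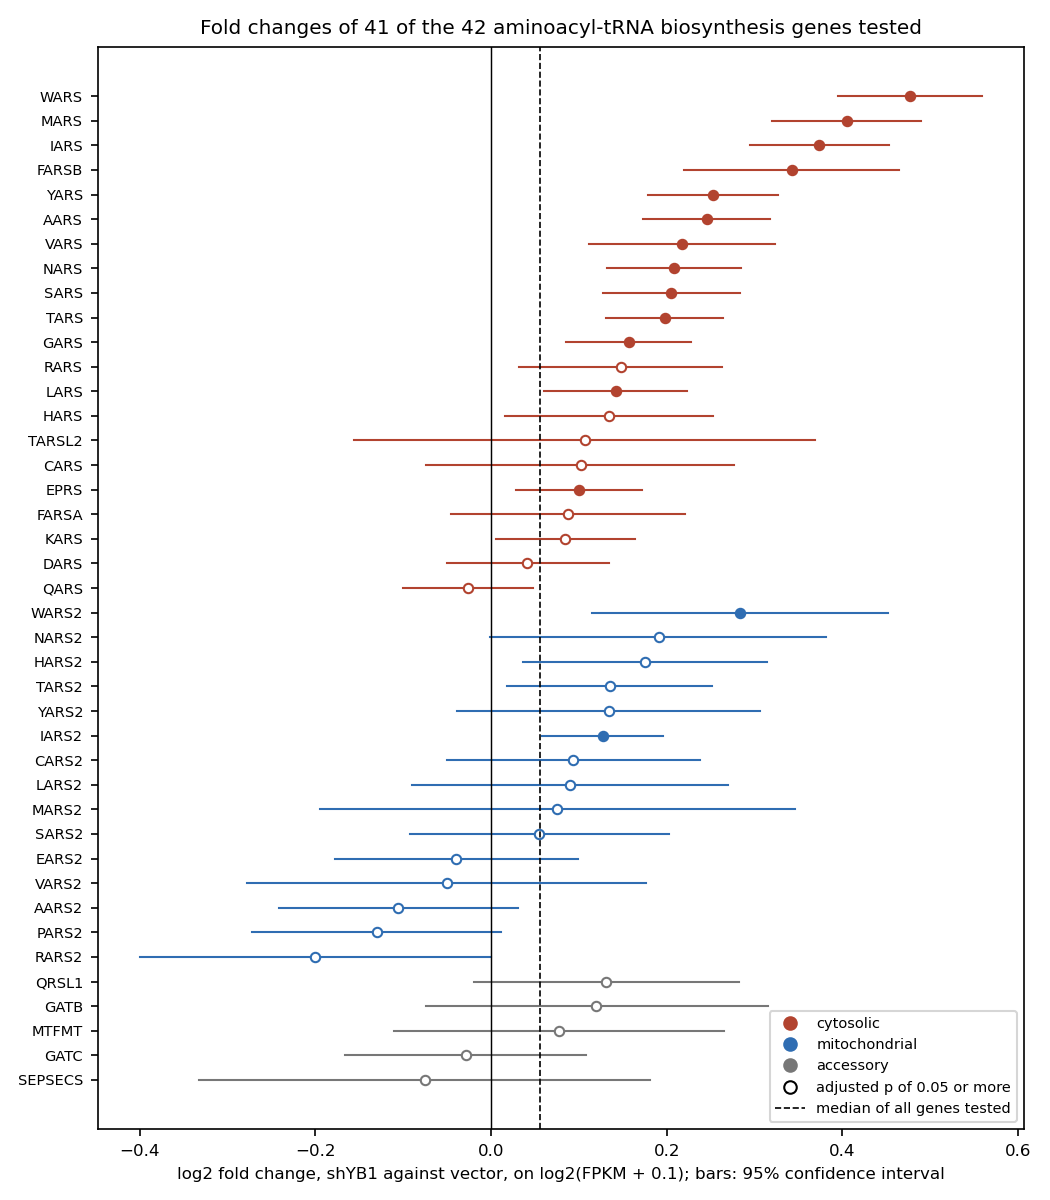
Fold changes of 41 of the 42 genes tested, grouped as cytosolic, mitochondrial and accessory, on the log2(FPKM + 0.1) scale with 95% confidence intervals from limma. Filled points have an adjusted p under 0.05, and the dashed line is the median of all genes tested, at 0.06. Of the cytosolic points, 20 lie above 0, and QARS lies below it.

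The 3 largest cytosolic changes were those of WARS, MARS and IARS. WARS charges tRNA with tryptophan (chr14:100333790-100376327, GRCh38.p14). It was at 24.7, 26.2 and 25.9 FPKM in vector and at 35.9, 35.7 and 35.4 in shYB1, so every shYB1 value lay above every vector value. The log2 fold change was 0.48 with a standard error of 0.037 (limma, adjusted p = 2.08e-05, 3 libraries a group), an increase of 39.3% in the mean. MARS charges methionine, including the tRNA that starts translation (chr12:57488068-57516652). It was at 42.8, 39.8 and 42.9 FPKM in vector and at 54.7, 56.4 and 55 in shYB1, a log2 fold change of 0.40 (SE 0.038, limma, adjusted p = 7.87e-05). The MARS locus overlaps DDIT3 and ARHGAP9, and whether counting used the strand is not given, so reads of overlapping genes cannot be told apart. The same holds for YARS, which overlaps S100PBP, and for EARS2 (GGA2), CARS2 (ING1), FARS2 (LYRM4), QRSL1 (RTN4IP1) and GATC (SRSF9). DDIT3 itself was not called, at 54.9, 55.6 and 55.3 FPKM in vector and 52.9, 53.7 and 52 in shYB1. With median-of-ratios size factors DDIT3 was called lower (log2 fold change -0.119, limma, adjusted p = 0.0168), as were 12% of all genes tested. IARS, the isoleucyl enzyme (chr9:92210207-92293697), was at 60.2, 61 and 60.5 FPKM in vector and at 77.7, 82 and 76.1 in shYB1, a log2 fold change of 0.37 (SE 0.036, limma, adjusted p = 7.87e-05). The groups did not overlap for any of the 3 genes, beside 30.1% of all genes tested that were higher without overlap. For called genes, here and below, the lack of overlap comes from the same values as the call and adds no support to it.

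The next called genes rose by less. FARSB, the beta chain of the phenylalanyl enzyme, was low, at 5.38, 5.72 and 5.85 FPKM in vector and 7.29, 7.01 and 7.27 in shYB1, and rose by 27.2% (limma, adjusted p = 0.00177). Its partner chain FARSA was at 12.6, 13.5 and 15 FPKM in vector and 14.7, 14.8 and 14.2 in shYB1 and was not called (limma, adjusted p = 0.313). The chains of this enzyme thus had log2 fold changes of 0.34 and 0.09, and the difference between them was not tested. YARS, which charges tyrosine, was at 51, 48.8 and 51.1 FPKM in vector and 59.5, 60.4 and 60 in shYB1, and rose by 19.2%. AARS, the alanyl enzyme and the highest of all 44 genes, was at 91.1, 91.2 and 94.5 FPKM in vector and 107, 110.1 and 112 in shYB1, a rise of 18.6%. For both genes the shYB1 libraries lay above all vector libraries, with limma adjusted p of 0.000559 for YARS and 0.000571 for AARS.

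VARS, NARS, SARS and TARS, for valine, asparagine, serine and threonine, rose by 16.3%, 15.5%, 15.3% and 14.7%. VARS was at 17.6, 18.4 and 19.6 FPKM in vector and 21, 21.9 and 21.9 in shYB1. NARS was at 47.6, 50.6 and 48.5 FPKM in vector and 56.7, 56.5 and 56.3 in shYB1. SARS was at 63.9, 61 and 62 FPKM in vector and 71.2, 70.3 and 74 in shYB1, again without overlap between groups. TARS, the second highest of the 44 genes, was at 78.7, 78.2 and 76.7 FPKM in vector and 90.2, 88.8 and 88.8 in shYB1. GARS, which charges glycine in both compartments, was at 73, 73 and 74 FPKM in vector and 79.4, 83.6 and 82.2 in shYB1, a rise of 11.5%. In these 5 genes the limma adjusted p lay between 0.0013 for TARS and 0.00825 for VARS, and the lowest shYB1 value exceeded the highest vector value.

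LARS and EPRS completed the 13. LARS, the leucyl enzyme, was at 19.8, 19.6 and 19.7 FPKM in vector and 22, 21.5 and 21.7 in shYB1 (log2 fold change 0.14, limma, adjusted p = 0.0179). EPRS, which joins glutamyl and prolyl activity in 1 chain, was at 40, 40.4 and 39.6 FPKM in vector and 42.7, 43.4 and 42.7 in shYB1 (log2 fold change 0.10, limma, adjusted p = 0.0436). Neither call held with median-of-ratios size factors, where the limma adjusted p was 0.111 for LARS and 0.326 for EPRS. EPRS lost its call when any 1 of the 6 libraries was left out, and LARS lost it without shYB1 replicate 1. The other 11 were called under all 15 alternative settings.

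**Figure D2:**
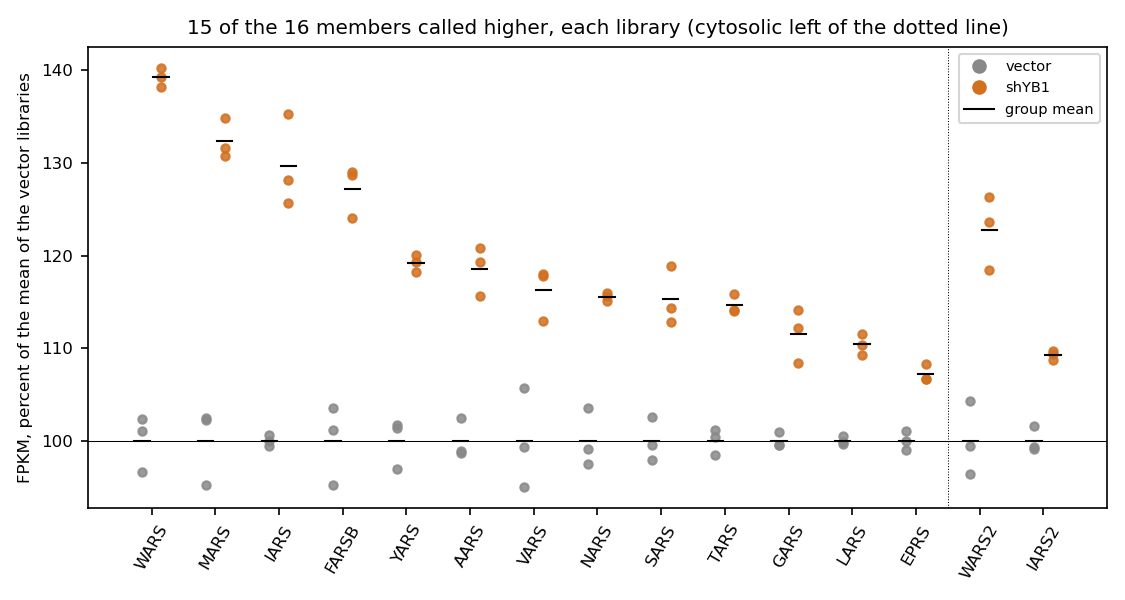
FPKM of 15 of the 16 genes called higher, in each library, as a percentage of the mean of the vector libraries, with horizontal bars at group means. Grey points are vector and orange points are shYB1. Rises in the mean run from 39.3% for WARS to 7.22% for EPRS. The groups do not overlap for any gene shown, beside 30.1% of all genes tested that are higher without overlap. The genes were chosen by calls on the same values, so the lack of overlap adds no support.

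The remaining 8 cytosolic genes were not called. KARS, which charges lysine in both compartments, was at 47.8, 47.5 and 49.1 FPKM in vector and 50, 50.3 and 52.9 in shYB1, without overlap but with a log2 fold change of 0.08 (95% interval 0.01 to 0.16, limma, adjusted p = 0.107). DARS, the aspartyl enzyme, was at 27.9, 29.2 and 28.9 FPKM in vector and 28.5, 30.8 and 29.2 in shYB1, and its groups overlapped. QARS, the glutaminyl enzyme, was the only cytosolic gene with a value below 0, a log2 fold change of -0.03, at 39.5, 39 and 39.9 FPKM in vector and 38.6, 38.3 and 39.5 in shYB1. RARS for arginine and HARS for histidine had log2 fold changes of 0.15 and 0.13, with limma adjusted p of 0.0605 and 0.0903. CARS, the cysteinyl enzyme, was at 9.2, 8.17 and 9.81 FPKM in vector and 8.81, 10.2 and 10.1 in shYB1. TARSL2, a further threonyl enzyme and the lowest cytosolic gene, was at 2.06, 1.79 and 2.56 FPKM in vector and 2.22, 2.21 and 2.42 in shYB1. Both overlapped between groups.

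Called genes lay both inside and outside the multisynthetase complex. Of its 8 enzyme genes, IARS, MARS, LARS and EPRS were called, and RARS, DARS, QARS and KARS were not. Outside it 9 of 13 cytosolic genes were called, beside 18.7% of all genes called higher. With median-of-ratios size factors these counts were 2 of 8 and 9 of 13, beside 11.4%. The difference between inside and outside was not tested. The scaffold genes AIMP2 and EEF1E1 rose, with AIMP2 at 3.54, 3.44 and 4.23 FPKM in vector and 4.8, 5.33 and 5.25 in shYB1 (log2 fold change 0.45, limma, adjusted p = 0.00393). EEF1E1 was at 17, 16.9 and 18.6 FPKM in vector and 19.3, 22.5 and 20.5 in shYB1 (log2 fold change 0.24, limma, adjusted p = 0.016), and its call was lost without vector replicate 1, vector replicate 2 or shYB1 replicate 2. The third scaffold gene, AIMP1, was at 7.27, 7.87 and 7.36 FPKM in vector and 8.09, 8.1 and 7.78 in shYB1 and was not called. By catalytic fold, 6 of 9 cytosolic class I genes and 6 of 11 class II genes were called, beside 18.7% of all genes. With median-of-ratios size factors the counts were 5 of 9 and 6 of 11, beside 11.4%. The difference between the folds was not tested. EPRS, which has both folds, was counted in neither.

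The letters TGATGNAA, on either strand, were searched in RefSeq promoter windows of 300 bases (250 before and 50 after an annotated start, GRCh38.p14). Windows were given for 34 of the 44 genes. A match occurred in 7 of 16 cytosolic genes (43.8%), in 1 of 14 mitochondrial genes (7.14%) and in 0 of 4 accessory genes, beside 2.63% of the genes tested that have a window and 4.46% of all genes with one. The form TGATGCAA, looked at after the first search, was in 6 cytosolic genes (37.5%), 0 mitochondrial genes and 0.681% of the genes tested. The sequences below are those of the 7 cytosolic genes and of YARS2, shown because they hold the match, which is in capitals. They read 5′ to 3′ on the strand of the gene, and TTGCATCA and TTTCATCA are matches on the opposite strand.
TARS (chr5:33440956-33440985, plus strand): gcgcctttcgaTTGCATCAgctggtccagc
GARS (chr7:30594834-30594863, plus strand): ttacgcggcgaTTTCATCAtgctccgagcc
IARS (chr9:92293668-92293756, minus strand): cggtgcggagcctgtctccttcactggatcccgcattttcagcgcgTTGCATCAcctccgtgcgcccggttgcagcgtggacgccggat
CARS (chr11:3057394-3057471, minus strand): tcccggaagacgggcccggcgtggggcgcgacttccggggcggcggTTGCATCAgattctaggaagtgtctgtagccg
YARS2 (chr12:32756041-32756140, minus strand): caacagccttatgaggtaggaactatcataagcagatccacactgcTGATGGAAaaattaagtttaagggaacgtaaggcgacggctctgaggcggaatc
MARS (chr12:57488018-57488097, plus strand): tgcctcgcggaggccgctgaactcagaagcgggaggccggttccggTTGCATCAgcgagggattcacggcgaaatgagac
AARS (chr16:70289640-70289739, minus strand): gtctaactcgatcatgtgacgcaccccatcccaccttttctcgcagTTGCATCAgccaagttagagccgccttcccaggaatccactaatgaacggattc
NARS (chr18:57621807-57621868, minus strand): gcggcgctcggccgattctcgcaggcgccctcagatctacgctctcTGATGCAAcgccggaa

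Counted from the annotated start of the window, with minus values before it, the match began at 3 in TARS, -33 in GARS, -13 in IARS, -2 in CARS, -197 in YARS2, -4 in MARS, -187 in AARS and 15 in NARS. Of the 7 cytosolic genes with a match, 6 were called higher, and CARS was not, beside 18.7% of all genes tested. Of the 9 with a window and no match, 4 were called, among them WARS and FARSB. The median log2 fold changes with and without a match were 0.21 and 0.13, and the difference was not tested. LARS, YARS and VARS were called but had no window. Every matched cytosolic gene but CARS had a mean of at least 20 FPKM, where 27.6% of all genes were called higher. The NRF1 motif, on either strand, was in the windows of 3 of 16 cytosolic genes (18.8%), of 3 of 14 mitochondrial genes (21.4%) and in 14.5% of the genes tested. A match describes these letters, and binding of a factor there was not tested.

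ATF4 and its targets outside the pathway changed in both directions. Of 19 tested, 10 were called higher and 3 lower, beside 18.7% and 6.93% of all genes, with a median log2 fold change of 0.19. With median-of-ratios size factors 10 were called higher and 4 lower, DDIT3 among the latter, beside 11.4% and 12%. PSAT1, an enzyme of serine synthesis, was at 88.9, 90 and 92.7 FPKM in vector and 127, 131 and 125 in shYB1 (log2 fold change 0.49, limma, adjusted p = 7.17e-06). ASNS, asparagine synthetase, was at 45.6, 44.3 and 45.9 FPKM in vector and 50.8, 54 and 52.2 in shYB1 (log2 fold change 0.21). SLC7A5, which imports large neutral amino acids, was at 95.1, 93.7 and 100.3 FPKM in vector and 117, 115 and 114 in shYB1 (log2 fold change 0.26). ATF3, STC2, PSPH, MTHFD2, PYCR1, TRIB3 and SHMT2 also rose. ATF4 itself fell, from 73.3, 73.1 and 74.6 FPKM in vector to 66.7, 68.2 and 70 in shYB1 (log2 fold change -0.11, limma, adjusted p = 0.0322), as did ALDH18A1 and DDIT4. The ATF4 call was lost without any 1 of the libraries except shYB1 replicate 3, that of ALDH18A1 without any 1 except vector replicate 3 and shYB1 replicate 2, and that of DDIT4 without shYB1 replicate 1 or 2. The list was drawn up with earlier results of these data known, and the ATF4 protein was not measured in these libraries.

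Among the 3 mitochondrial genes called higher were WARS2 and IARS2. WARS2, the tryptophanyl enzyme, was at 2.16, 2.06 and 2 FPKM in vector and 2.62, 2.45 and 2.56 in shYB1, a rise of 22.7% (log2 fold change 0.28, SE 0.076, limma, adjusted p = 0.021). IARS2, the isoleucyl enzyme, was at 50.1, 50.2 and 51.4 FPKM in vector and 55.4, 55.3 and 54.9 in shYB1, a rise of 9.22% (limma, adjusted p = 0.0144). The groups did not overlap in either gene. None of the 3 calls held with median-of-ratios size factors, where the limma adjusted p was 0.0561 for WARS2 and 0.0957 for IARS2. WARS2 lost its call without vector replicate 2 or 3 or shYB1 replicate 1 or 3, and IARS2 without shYB1 replicate 2.

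The other 13 mitochondrial genes tested lay on both sides of 0 and none passed the test. RARS2, for arginine, had the lowest log2 fold change, -0.20, at 4.16, 3.41 and 3.46 FPKM in vector and 3.42, 3.07 and 3.04 in shYB1 (limma, adjusted p = 0.128). PARS2, for proline, was at 5.17, 5.77 and 5.86 FPKM in vector and 5.17, 4.98 and 5.16 in shYB1 (log2 fold change -0.13). AARS2, for alanine, was at 4.34, 4.26 and 4.4 FPKM in vector and 4.14, 4.09 and 3.84 in shYB1, and it was the 1 member whose shYB1 values all lay below its vector values (limma, adjusted p = 0.233). On the higher side, NARS2, for asparagine, was at 6.73, 7.22 and 8.1 FPKM in vector and 7.53, 9.21 and 8.46 in shYB1, with overlap. HARS2, for histidine, was at 7.09, 7.06 and 7.06 FPKM in vector and 7.29, 8.24 and 8.5 in shYB1, and TARS2, for threonine, at 9.28, 9.69 and 10.3 FPKM in vector and 10.5, 11 and 10.6 in shYB1. Both were without overlap between groups, with limma adjusted p of 0.0639 and 0.0843. Nonoverlapping higher values were found in 14 cytosolic and 5 mitochondrial genes, and nonoverlapping lower values in 1 mitochondrial gene, beside 30.1% and 12.5% of all genes tested. HARS and HARS2 start 85 bases apart on opposite strands of chromosome 5, and their log2 fold changes were 0.13 and 0.18. YARS2, CARS2, LARS2, MARS2 and SARS2 had log2 fold changes from 0.06 to 0.13, and EARS2 and VARS2 -0.04 and -0.05. LARS2, the lowest of these, was at 2.35, 2.58 and 2.41 FPKM in vector and 2.46, 2.81 and 2.57 in shYB1, and FARS2, not tested, at 0.952, 0.828 and 0.663 in vector and 0.814, 0.807 and 0.791 in shYB1. SARS2 and VARS2 are uncertain, since 39.5% and 21.1% of the 50-base words of their transcripts occur in another gene.

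The 6 accessory genes were low and none was called. GATB, QRSL1 and GATC encode the amidotransferase that makes mitochondrial glutaminyl-tRNA. GATB was at 3.63, 4.53 and 3.69 FPKM in vector and 4.13, 4.24 and 4.48 in shYB1. QRSL1 was at 3.93, 4.45 and 4.28 FPKM in vector and 4.43, 4.64 and 4.82 in shYB1, and GATC at 9.44, 8.38 and 8.49 in vector and 8.81, 8.86 and 8.1 in shYB1. All overlapped between groups. GATC is uncertain, since 7.95% of its 50-base words occur in another gene and its locus overlaps SRSF9, and the QRSL1 locus overlaps RTN4IP1. MTFMT, which formylates the mitochondrial initiator tRNA, was at 2.22, 2.24 and 2.02 FPKM in vector and 2.12, 2.31 and 2.41 in shYB1. SEPSECS and PSTK, which make selenocysteinyl-tRNA, were at 1.08, 1.17 and 0.994 FPKM in vector and 0.913, 1.01 and 1.14 in shYB1 and at 0.368, 0.552 and 0.474 FPKM in vector and 0.403, 0.385 and 0.641 in shYB1. These groups overlapped too.

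Level moved with the calls. Cytosolic genes had a median of 39.2 FPKM and mitochondrial genes tested a median of 5.1 FPKM, beside 7.3 FPKM for all genes. IARS2, at 52.9 FPKM, stood among the cytosolic genes and ranked 7 of 44. At a mean of at least 20 FPKM, a limit set after the values were seen, 12 of 16 cytosolic genes and 1 of 1 mitochondrial gene were called higher, beside 27.6% of all genes at that level. Under 20 FPKM the counts were 1 of 5 and 2 of 15, beside 16.2%. With median-of-ratios size factors, 10 of the 16 were called, beside 18.1%, and 1 of the 5, beside 9.51%. Few cytosolic genes were low and 1 mitochondrial gene was high, so the part of level in the difference between the sets cannot be told apart from the set.

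**Figure D3:**
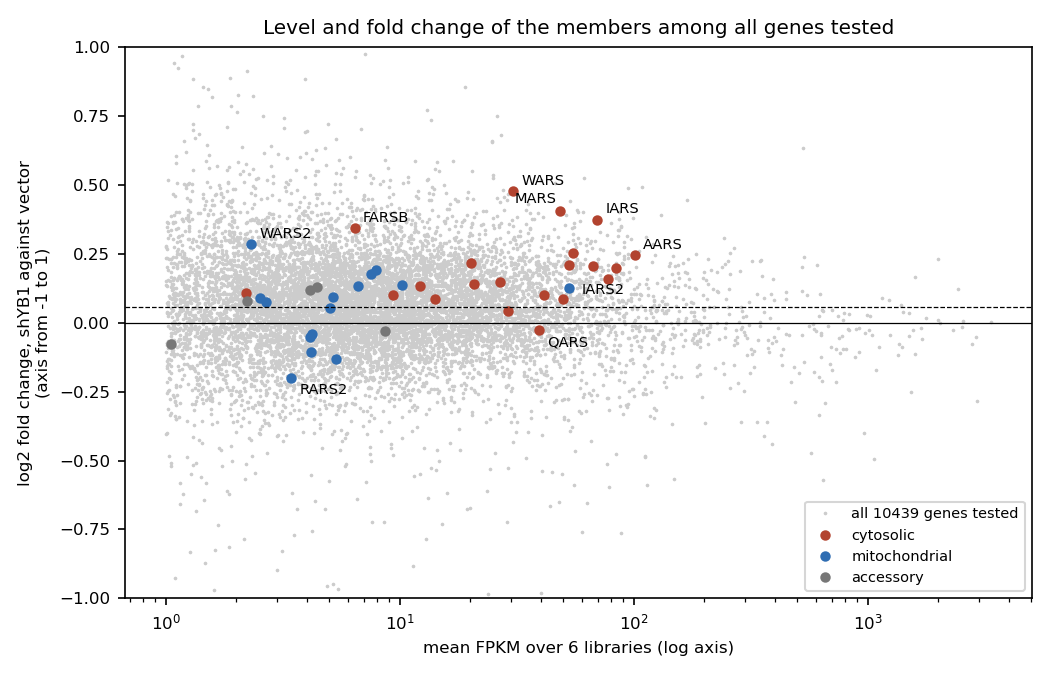
Mean FPKM over the 6 libraries (log axis) against the log2 fold change of shYB1 over vector, with all 10439 genes tested in grey and 41 of the members coloured by set. The vertical axis runs from -1 to 1 and leaves out 27 genes. Most cytosolic points lie at higher FPKM than the mitochondrial points, and WARS, MARS and IARS stand highest among the labelled ones.

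Comparing both enzymes for an amino acid within a library removes the scaling of that library. EPRS and FARS2 enter 2 pairs each. In all 18 pairs the cytosolic transcript was the higher. The ratio of cytosolic to mitochondrial FPKM was above its vector mean in shYB1 in 16 pairs and below it in 2. Some of the 16 barely moved, with means of 1.81 and 1.82 for CARS to CARS2 and 6.69 and 6.77 for NARS to NARS2. Both pairs with FARS2, which was under the filter, are among the 16. The ratio did not overlap between groups in 9 pairs, 8 of them higher in shYB1. The share of other gene pairs with such ratios was not computed, so these counts have no background of their own. Among single genes tested, 30.1% were higher in shYB1 without overlap and 12.5% lower. The ratio of AARS to AARS2 was 21, 21.4 and 21.5 in vector and 25.8, 26.9 and 29.1 in shYB1. That of IARS to IARS2 was 1.2, 1.21 and 1.18 in vector and 1.4, 1.48 and 1.39 in shYB1. In both of these pairs the two-sided exact permutation p was 0.1, the smallest that 3 against 3 libraries allow. Ratios of CARS, HARS, LARS, NARS, TARS, YARS and VARS to their partners overlapped between groups, as did those of FARSA and FARSB to FARS2. The summed FPKM of the cytosolic set was 790.2, 790 and 805 in vector and 909, 926 and 921 in shYB1, and that of the mitochondrial set 125, 128 and 131 in vector and 134, 140.4 and 136 in shYB1. Their ratio was 6.31, 6.2 and 6.16 in vector and 6.78, 6.6 and 6.78 in shYB1, a rise of 7.98% in the mean without overlap. IARS2 alone made up 50.6 of the mean mitochondrial sum of 128 FPKM in vector and 55.2 of 137 in shYB1, so this ratio leans on 1 gene.

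**Figure D4:**
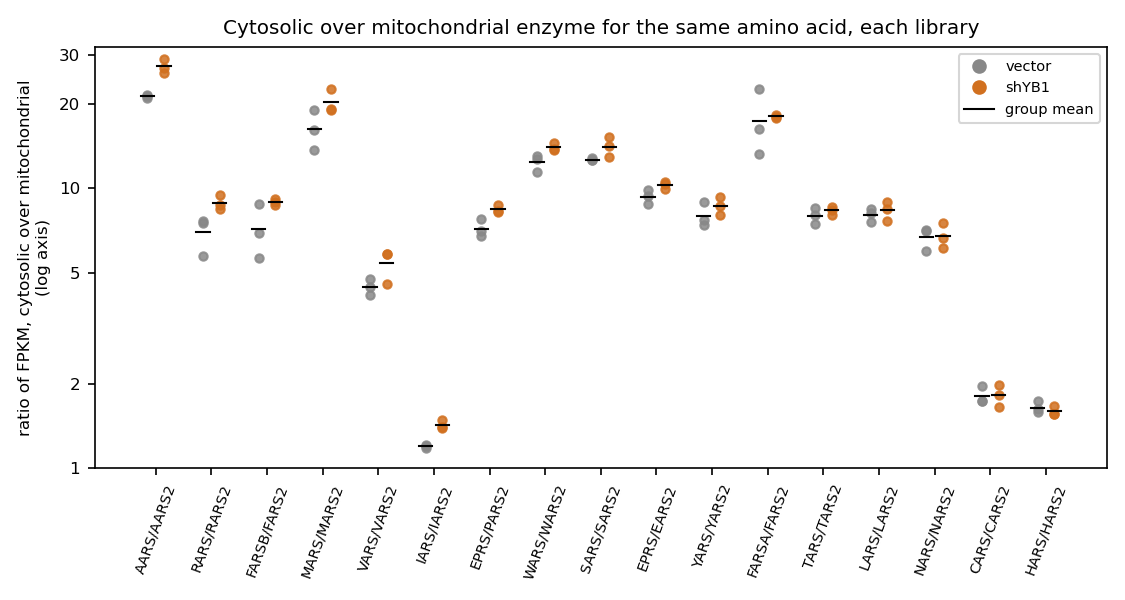
Ratio of cytosolic to mitochondrial FPKM for 17 of the 18 enzyme pairs in each library (log axis), ordered by the change from vector (grey) to shYB1 (orange), with bars at group means. AARS/AARS2 moved from a mean of 21.3 to 27.3, and IARS/IARS2 from 1.2 to 1.42.

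Other genes that handle tRNA or charged tRNA were followed in lists, to be read beside the 18.7% of all genes called higher and 6.93% called lower (11.4% and 12% with median-of-ratios size factors). Of 10 genes of tRNA export, maturation and proofreading, 4 were called higher and 0 lower, and at an unadjusted limma p under 0.05 there were 7 higher and 0 lower, beside 28.2% and 10.8% of all genes. XPOT, which exports tRNA from the nucleus, was at 23.9, 24.8 and 23.1 FPKM in vector and 30, 29.8 and 29.2 in shYB1 (log2 fold change 0.31, limma, adjusted p = 0.000458). RTCB, the tRNA ligase, was at 24.1, 24.3 and 26.1 FPKM in vector and 28.5, 30.4 and 30.3 in shYB1 (log2 fold change 0.26, limma, adjusted p = 0.00255). ELAC1, a tRNA-processing nuclease, also rose, with a log2 fold change of 0.43, and lost its call without vector replicate 1 or shYB1 replicate 1. Of 6 cytosolic elongation factor genes, EEF1A2 rose (log2 fold change 0.22) and EEF2 fell (log2 fold change -0.20). EEF2 moves the ribosome along the message, and it was at 639.7, 656 and 679 FPKM in vector and 566, 576 and 580.2 in shYB1. Under median-of-ratios size factors 4 of the 6 were called lower. Of 9 mitochondrial translation factor genes, the elongation factors GFM1 and TUFM and the initiation factor MTIF2 rose, with log2 fold changes of 0.34, 0.15 and 0.28, and with those size factors only GFM1 was called. MTIF2 also lost its call without vector replicate 1 or 3 or shYB1 replicate 2. Of 4 genes of selenocysteine use, EEFSEC, the elongation factor for selenocysteinyl-tRNA, was called higher (log2 fold change 0.34, limma, adjusted p = 0.0295), but not with median-of-ratios size factors nor without vector replicate 2 or shYB1 replicate 1 or 3.

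**Figure D5:**
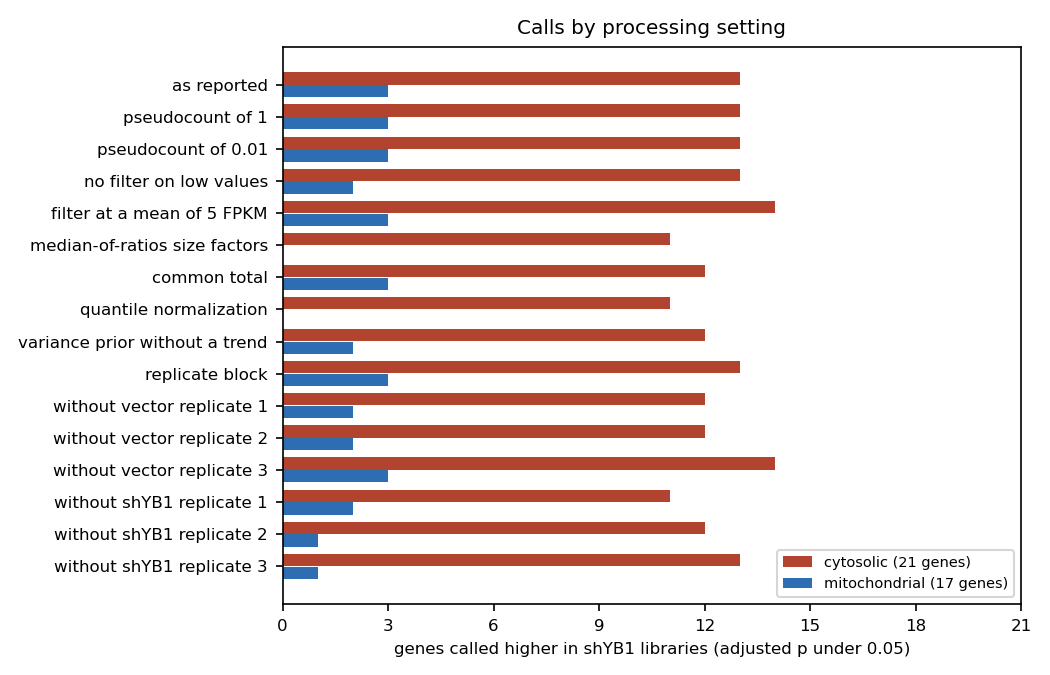
Number of cytosolic (of 21) and mitochondrial (of 17, FARS2 included) genes called higher in shYB1 under each processing setting. Cytosolic calls range from 11 to 14, and mitochondrial calls reach 0 with median-of-ratios and with quantile normalization. Calls over all genes also fall there, from 1956 higher as reported to 1192 and 1267. The bars carry no share of all genes.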

How the data were processed

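RNA was sequenced from 3 vector and 3 shYB1 libraries of 786-O cells. The authors deposited FPKM, normalized for transcript length and library size, for 20030 genes with GO and KEGG annotation. The submitters' processing notes name Trimmomatic, HISAT2, Cufflinks, HTSeq, DESeq and GRCh38, without roles. All 6 columns of FPKM were used and 0 were left out. Depth, and whether counting used the strand, are not given in the sources used here, so no interval or limit that needs depth was computed.

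Members were the genes annotated with KEGG aminoacyl-tRNA biosynthesis, and only this annotation was used from those columns. Members and lists were chosen with earlier results of these data known. Deposited FPKM values were taken as log2(FPKM + 0.1) where the mean reached 1 FPKM. The test was limma 3.58.1 under R 4.3.3 (lmFit and eBayes with a trend and a robust prior), run on both sides without a replicate block, and p-values were adjusted by Benjamini-Hochberg across the 10439 genes. The fit was tested on simulated data, where it recovered 98 of 100 genes changed by 1 on the log2 scale. At a change of 0.25 it recovered 31 of 100. Only 100 genes at each size were changed there, while 1956 genes were called higher and 723 lower in the data. The adjusted threshold was thus stricter in the simulation, so these shares do not give the recovery for the members. A gene not called may still have changed. Values are mean ± SD or given per library. Per-library values were given for each called member, for the 3 largest and 3 smallest fold changes and for the 3 highest and 3 lowest levels of each set. Other genes were named from the lists where called or where they bind a member. Promoter windows and gene positions came from RefSeq (GRCh38.p14), matched by gene identifier for 34 and 44 genes. Words of 50 bases shared between genes were counted in GENCODE transcripts, matched by symbol. Protein features were not analysed here. Some listed genes enter the counts but their values are not reported here. Alternatives were other pseudocounts, filters, scalings, a prior without a trend, a replicate block, each library left out and other assignments to sets.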

Additional observations from a re-analysis of the deposited data

How the results depend on the processing

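Over the alternatives, 11 to 14 cytosolic genes were called higher (13 as reported). Median-of-ratios size factors left 0 mitochondrial genes higher of 3, a cytosolic median of 0.102 (0.157 as reported) and a mitochondrial median of 0.0382 (0.0919). They gave 1192 genes higher and 1253 lower in all (1956 and 723), 4 elongation factors lower (1), 1 mitochondrial translation factor higher (3), 0 selenocysteine genes higher (1) and DARS at -0.0136. Quantile normalization gave 0 mitochondrial genes higher and 1 lower (PARS2), medians of 0.137 and 0.0325, 1267 genes higher and 1184 lower in all, 3 elongation factors lower, 0 selenocysteine genes higher, DARS at -0.0128 and SARS2 at -0.00767. The filter at 5 FPKM gave a cytosolic median of 0.177, 1 scaffold gene higher (2), 2 tRNA handling genes higher (4) and 0 selenocysteine genes higher, with AIMP2, ELAC1 and EEFSEC among the genes no longer tested. Without a filter 0 selenocysteine genes were higher, with a common total 2 elongation factors were lower, and with a prior without a trend 0 ATF4 targets were lower (3). Pseudocounts of 1 and 0.01 left the cytosolic and mitochondrial counts at 13 and 3. With each library left out in turn, 1 to 3 mitochondrial genes, 1 to 2 scaffold genes and 0 to 1 selenocysteine genes were higher, 0 to 2 ATF4 targets were lower, and the cytosolic median ranged from 0.149 to 0.186. In the same fits TARSL2 ranged from -0.00885 to 0.238, MARS2 from -0.02 to 0.207, VARS2 from -0.175 to 0.0268 and GATC from -0.0601 to 0.0245. Leaving out GARS and KARS gave 12 cytosolic genes. Other causes of these changes were not tested.

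Deviations from the group mean correlated at -0.169, -0.059 and -0.00824 between same-numbered libraries. Between libraries of other numbers the correlations ran from -0.0507 to 0.113. With 3 libraries a group, these correlations cannot show whether the numbers mark a shared culture. With the replicate block, 13 cytosolic and 3 mitochondrial genes were higher, 2 elongation factors were lower, and 2074 genes were higher and 760 lower in all.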
